A study of Mus musculus with 6 samples.

Results

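Fibrillins, the small glycoproteins that coat their microfibrils and the latent TGF-beta binding proteins (LTBPs) were described across 6 mouse aortic libraries. The 9 genes were Fbn1, Fbn2, Mfap2, Mfap5, Mfap4, Ltbp1, Ltbp2, Ltbp3 and Ltbp4, chosen by family membership and not by their values, and matched by NCBI gene number among the 21117 genes of the table. Poly(A) RNA of untreated aortic tissue was sequenced from mice aged 32 weeks, in 3 wild-type (WT) samples and 3 samples of genotype Fbn1C1041G/+. The labels give neither the strain, the sex, the segment of the aorta nor the number of animals behind a sample. Whether replicates are different animals is not stated either, and p-values therefore describe only how these libraries vary, which may be technical. The values were FPKM, fragment numbers scaled to transcript length and library size, so levels of different genes could be set side by side. This scaling does not remove differences between libraries that went with transcript GC content, which are given below.

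Fibrillin-1 is a long, cysteine-rich glycoprotein that polymerises outside the cell into beaded microfibrils, which in the aortic media sheathe elastin and link it to smooth muscle cells. LTBPs share the repeated domains of the fibrillins. LTBP-1, LTBP-3 and LTBP-4 bind the latent form of TGF-beta covalently and tether it to the matrix, while LTBP-2 does not bind it. The C1041G allele replaces a cysteine of a calcium-binding EGF-like domain and is used in heterozygous mice as a model of Marfan syndrome.

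The mutated codon is shown because it defines the groups. In the GENCODE M21 annotation (build GRCm38) codon 1041 of the 2873 codons of Fbn1 reads TGT, a cysteine codon, in exon 26. The line below gives 63 coding bases of the reference at chr2:125363923-125363985, minus strand, 5′ to 3′, with that codon in capitals. The allele itself was not read from these data, since the table holds no sequence.
Fbn1 codon 1041: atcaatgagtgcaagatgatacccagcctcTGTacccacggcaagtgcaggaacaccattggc

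**Figure D1:**
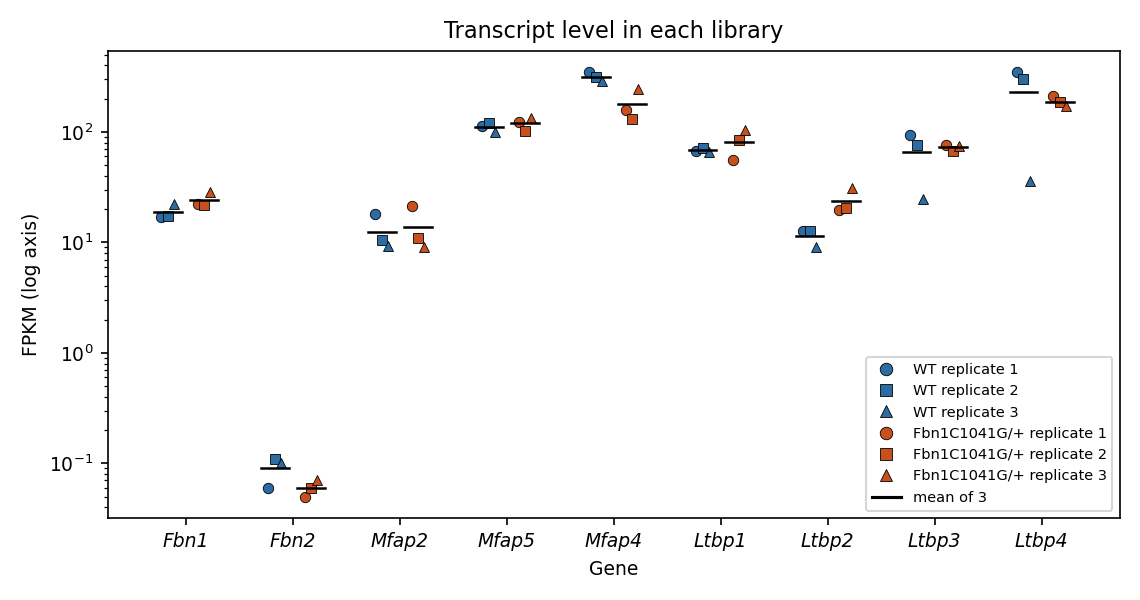
FPKM of the 9 genes (log axis) in each of the 3 WT (blue) and 3 Fbn1C1041G/+ (orange) libraries, with the mean of each group as a bar and the replicate number as the marker shape. Ltbp2 was higher and Mfap4 lower in all 3 mutant libraries, and WT replicate 3 (blue triangle) lay far below the other WT libraries for Ltbp3 and Ltbp4.

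The depth of the libraries, estimated from the steps between low FPKM values, ran from 13860000 to 16780000 fragments over the WT libraries and from 14550000 to 16690000 over the Fbn1C1041G/+ libraries. WT replicate 3 stood apart from the other WT libraries in its GC-rich transcripts. Across 13387 genes, the correlation of a library's deviation from its group mean with transcript GC content was -0.38 in that library, against 0.25 and 0.30 in WT replicates 1 and 2 and 0.27, -0.12 and -0.19 in Fbn1C1041G/+ replicates 1 to 3. These correlations run across genes, which are not independent replicates. Deviations within a group cancel out for each gene, so the values of a group's libraries depend on each other. Spearman correlations were 0.23, 0.33 and -0.35 in WT replicates 1 to 3. They were 0.34, -0.17 and -0.28 in Fbn1C1041G/+ replicates 1 to 3. The summed FPKM of 5 adipocyte markers was also highest in WT replicate 3, at 7384, against 3425 and 4410 in WT replicates 1 and 2. It was 7041, 4578 and 4225 in Fbn1C1041G/+ replicates 1 to 3. Results that move with WT replicate 3 are therefore given with and without it. Smooth muscle markers were abundant in every library. The summed FPKM of 7 genes such as Myh11 and Acta2 was 9167 to 10732 in WT and 9880 to 12065 in mutant libraries, so the groups overlapped. These markers do not establish how cleanly the aorta was dissected. The sum of 8 fibroblast markers, at 1754 to 1927 in WT and 1778 to 2196 in mutant libraries, overlapped as well. Markers of some other cell types differed between the groups. A gene is termed called if its adjusted p was under 0.05 in the limma comparison described below. That comparison called 0.744% of all tested genes higher and 4.85% lower. The 7 markers of chromaffin or glomus cells and sympathetic neurons summed to 1241 to 1433 FPKM in WT and 124.4 to 242.6 in mutant libraries, and all 7 were called lower. The 8 cardiomyocyte markers summed to 46.4 to 69.2 FPKM in WT and 145.6 to 552.4 in mutant libraries, with 4 called higher. The 4 T and B cell markers summed to 3.05 to 5.23 and 8.06 to 42.0 FPKM, and none of them was called. The 5 skeletal muscle markers summed to 6.77 to 11.1 and 14.35 to 110.4 FPKM, with 1 of the 3 tested called higher. None of the listed markers averaged under 0.1 FPKM over the 6 libraries.

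Within WT aortas the levels spanned Mfap4 at the top, with a mean of 316.2 FPKM, to Fbn2 at the bottom, with 0.0900 FPKM. Between them stood Ltbp4 at 229.0, Mfap5 at 111.2, Ltbp1 at 68.1, Ltbp3 at 65.4, Fbn1 at 18.8, Mfap2 at 12.6 and Ltbp2 at 11.4 FPKM (mean, n = 3). The ranges of neighbours in this order overlapped except between Mfap5 and Ltbp1, between Ltbp3 and Fbn1 and between Ltbp2 and Fbn2. Over WT replicates 1 and 2 alone Ltbp4, at 325.5 FPKM, stood next to Mfap4, at 329.6 FPKM, and Ltbp3, at 85.7 FPKM, stood above Ltbp1, at 69.5 FPKM, without overlap. In Fbn1C1041G/+ aortas Ltbp4 came first, at 188.6 FPKM, and Mfap4 second, at 177.6 FPKM, with overlapping ranges. Ltbp2, at 23.9 FPKM, stood above Mfap2, at 13.8 FPKM, but their ranges overlapped there too. The mutated gene was thus among the lower-expressed of the group, and its transcript was outnumbered per length by that of Mfap5 in every library, by 4.51 to 6.91 times in WT and 4.64 to 5.51 times in mutants.

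The groups were compared with limma on log2(FPKM + 1), a scale that understates the change of low genes, over the 13438 genes that averaged 1 FPKM or more, with Benjamini-Hochberg adjustment over all of them and a threshold of 0.05. Of the 9 genes 8 were tested, and Fbn2 fell below the filter. Ltbp2 was the single member called, and it was higher in Fbn1C1041G/+, where 0.744% of all tested genes were called higher. None of the 8 was called lower, where 4.85% of all tested genes were. The mutant and WT values did not overlap for 2 of the 8, Ltbp2 and Mfap4, against 20.0% of all tested genes. Ltbp2 lay above, as did 6.85% of all tested genes, and Mfap4 below, as did 13.1%. The median log2 fold change of the 8 was 0.24, with a range of -0.88 to 0.98, and that of all tested genes was -0.0036. Leaving out WT replicate 3 brought the median of the 8 to -0.030, with a range of -0.94 to 0.84, and that of all tested genes to -0.0014. In an exact permutation test, 2-sided, Ltbp2 and Mfap4 gave p = 0.1, the smallest that 3 against 3 allows.

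**Figure D2:**
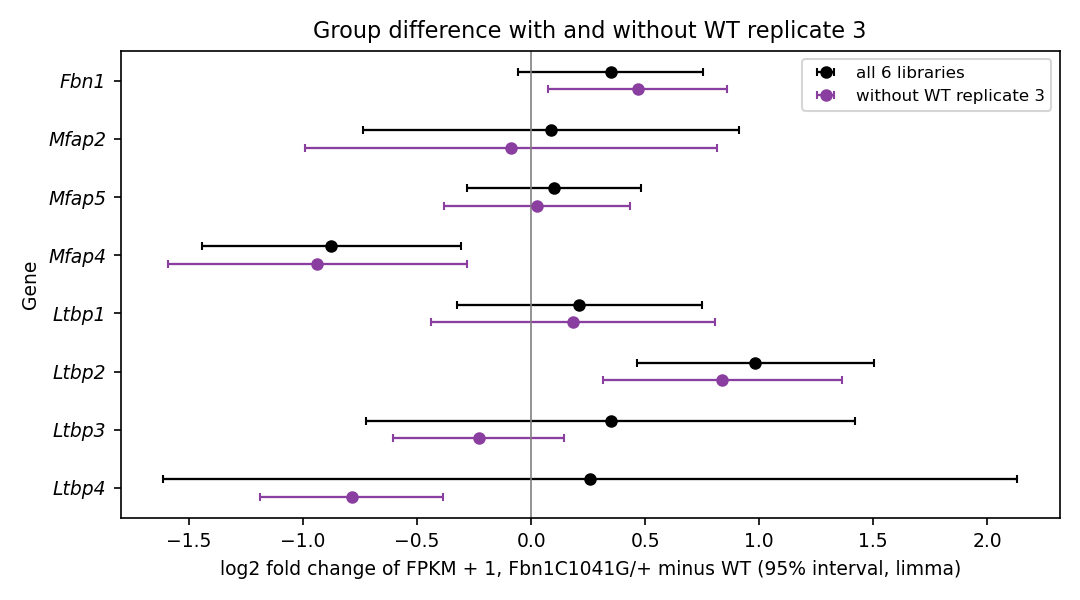
Log2 fold change of FPKM + 1, Fbn1C1041G/+ minus WT, with its 95% interval from limma, for the 8 tested genes with all 6 libraries (black) and without WT replicate 3 (purple). The intervals of Ltbp2 and Mfap4 excluded 0 both ways, and the point for Ltbp4 moved from 0.26 to -0.79.

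Fbn1 (NCBI gene 14118), the main structural subunit of aortic microfibrils, measured 16.94, 17.27 and 22.18 FPKM in WT replicates 1 to 3 against 22.29, 21.78 and 28.62 FPKM in Fbn1C1041G/+ replicates 1 to 3. The highest WT value, that of replicate 3, lay above the lowest mutant value, so the groups overlapped. The log2 fold change was 0.35 with a 95% interval of -0.057 to 0.76, that is 0.961 to 1.69-fold (limma adjusted p = 0.432). Without WT replicate 3 the remaining WT values lay below all 3 mutant values, and the log2 fold change was 0.47 with an interval of 0.076 to 0.86 and an adjusted p of 0.197. These values count transcripts of both alleles together. The genes whose profile over the 6 libraries was closest to that of Fbn1 were Stk4, Eri1 and Mgl2, with a root mean square (RMS) difference of 0.048, 0.064 and 0.069 on the log2 scale, where the spread of Fbn1 itself was 0.24. Such likeness is a description of 6 libraries chosen from 13438 genes.

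Fbn2 (NCBI gene 14119), the fibrillin that dominates in the embryo, was close to the limit of detection. It was listed at 0.06, 0.11 and 0.1 FPKM in WT and at 0.05, 0.06 and 0.07 FPKM in mutant libraries, which corresponds to about 9 to 20 fragments each. The ranges touched at 0.06 FPKM. It made up 0.353% to 0.633% of the summed fibrillin FPKM in WT and 0.224% to 0.275% in Fbn1C1041G/+ libraries. With no filter on low values its log2 fold change was -0.040 (limma adjusted p = 0.746). Adding 1 to values this low makes any change small, so this fit could not decide whether Fbn2 differed. With 0.1 or 0.01 added in place of 1 the log2 fold change was -0.24 or -0.49, which was not tested.

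Mfap4 (NCBI gene 76293) encodes a fibrinogen-like glycoprotein that binds fibrillin-1, elastin and integrins of vascular smooth muscle. It measured 345.8, 313.3 and 289.45 FPKM in WT against 157.63, 130.69 and 244.53 FPKM in Fbn1C1041G/+ replicates 1 to 3. All 3 mutant values lay below the lowest WT value, and replicate 3 was the nearest to WT. The mean was 316.2 ± 28.3 FPKM in WT and 177.6 ± 59.5 FPKM in the mutant (SD, n = 3 each), a ratio of 0.562. The log2 fold change was -0.88 ± 0.24 (SE), with a 95% interval of -1.44 to -0.31, and did not pass the threshold over all genes (limma adjusted p = 0.106). Leaving out Fbn1C1041G/+ replicate 3 brought it past the threshold, with a log2 fold change of -1.13 and an adjusted p of 0.0345, in a comparison that called 2.95% of all tested genes lower. Without WT replicate 3 the log2 fold change was -0.94 (adjusted p = 0.122).

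Mfap5 and Mfap2 encode MAGP-2 and MAGP-1, small proteins bound along the microfibril. Mfap5 (NCBI gene 50530) stood at 113.95, 119.4 and 100.11 FPKM in WT and 122.9, 101.05 and 135.11 FPKM in mutant libraries. Its groups overlapped and its spread was narrow, with a log2 fold change of 0.099 and a 95% interval of 0.823 to 1.40-fold (limma adjusted p = 0.887), and of 0.027 without WT replicate 3. Mfap2 (NCBI gene 17150) was lower and varied more within each group than between them, at 17.94, 10.47 and 9.26 FPKM in WT and 21.3, 10.87 and 9.1 FPKM in mutant libraries. The library numbered 1 was the highest in both groups. The log2 fold change of Mfap2 was 0.087 (limma adjusted p = 0.962), with an interval of 0.600 to 1.88-fold, and its sign turned without WT replicate 3 (-0.087), WT replicate 2 (-0.0063) or Fbn1C1041G/+ replicate 1 (-0.25). Mfap2 rested on about 138 to 381 fragments per library, the fewest of the 8 tested genes. Its nearest profiles were those of Neurl2, Gm16845 and Alpl, at RMS differences of 0.078, 0.10 and 0.12.

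The makeup of these small proteins is given by their shares within a library. Mfap4 made up 72.4%, 70.7% and 72.6% of the summed FPKM of Mfap2, Mfap4 and Mfap5 in WT and 52.2%, 53.9% and 62.9% in Fbn1C1041G/+ replicates 1 to 3. The WT shares lay within a narrow band and above all mutant shares. The ratio of Mfap4 to Mfap5 within a library was 3.03, 2.62 and 2.89 in WT and 1.28, 1.29 and 1.81 in mutants, and that of Mfap4 to Fbn1 was 13.1 to 20.4 in WT and 6.0 to 8.54 in mutants. These ratios were chosen after the levels had been seen and carry no test. Since they are taken within a library, a scaling that multiplies a whole library leaves them as they are. The closest profiles to that of Mfap4 were Ttc39a, Lrp12 and Cystm1, at RMS differences of 0.20 to 0.21 against a spread of 0.52 for Mfap4 itself, so no tested gene followed it as closely as others followed Fbn1. The chromaffin or glomus and sympathetic markers were lower in the same 3 libraries, as given above. The summed FPKM of 5 Schwann cell markers lay between 205.2 and 312.0 in WT and between 132.0 and 196.5 in mutants, without overlap. Of these markers 2 were called lower, where 4.85% of all tested genes were. Among the mutants, the chromaffin or glomus and sympathetic sum and the Schwann cell sum were both lowest in replicate 3, at 124.4 and 132.0 FPKM. Mfap4 was highest among the mutants in that library, at 244.53 FPKM. The part of these cells in the value of Mfap4 was not tested. In bulk tissue, fewer cells of a type and less RNA per cell cannot be told apart.

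**Figure D3:**
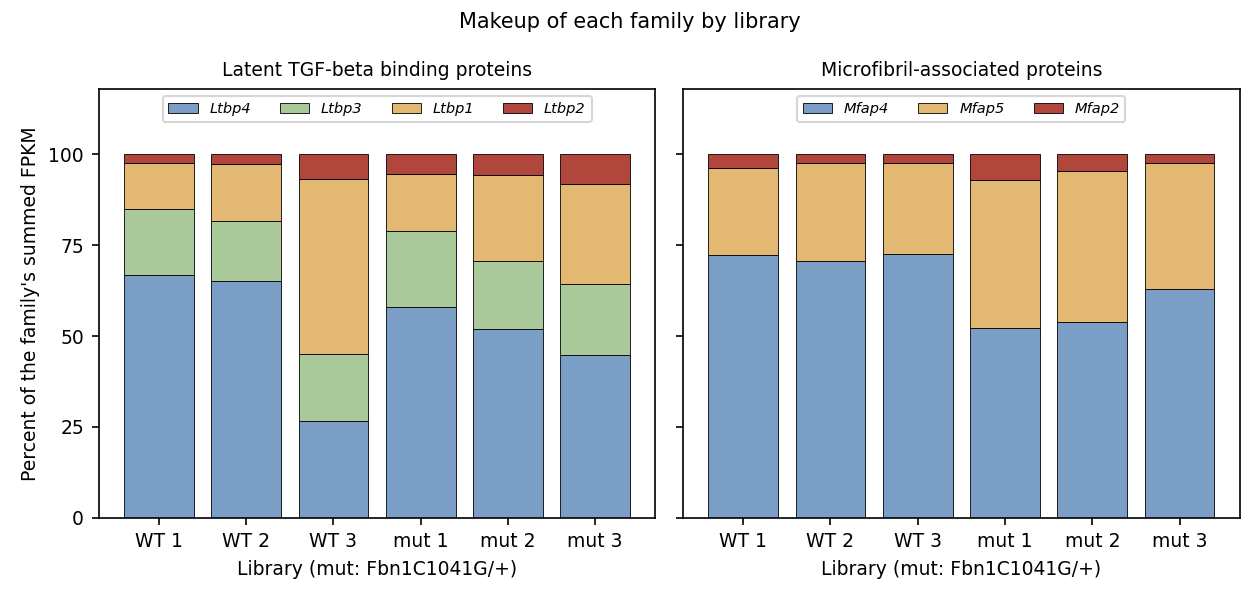
Percent of the summed FPKM that each gene contributed in each library, for the 4 LTBP genes (left) and the 3 microfibril-associated genes (right). Mfap4 took 70.7% to 72.6% in WT and 52.2% to 62.9% in mutant libraries, and Ltbp4 took 26.7% in WT replicate 3 against 66.7% and 65.1% in the other WT libraries.

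Ltbp2 (NCBI gene 16997) encodes an LTBP that lies on microfibrils, competes with LTBP-1 for fibrillin-1 and is best known from the ciliary zonule of the eye. Its level was 12.61, 12.6 and 9.07 FPKM in WT and 19.7, 20.57 and 31.29 FPKM in Fbn1C1041G/+ replicates 1 to 3. Every mutant value lay above every WT value, with the highest in replicate 3. The means of 11.4 ± 2.04 and 23.9 ± 6.46 FPKM (SD, n = 3 each) differed by a ratio of 2.09. The log2 fold change of 0.98 ± 0.22 (SE) had a 95% interval of 0.46 to 1.5 and passed the threshold narrowly (limma adjusted p = 0.0499). Leaving out any 1 of the 6 libraries ended the call, with log2 fold changes of 0.78 to 1.1 and adjusted p values of 0.0814 to 0.133. Without WT replicate 3, where Ltbp2 was lowest, the log2 fold change was 0.84 with an interval of 0.32 to 1.36. With all 6 libraries and values corrected for GC content it was 1.05 and was called (limma adjusted p = 0.0453). With GC correction and without WT replicate 3 it was also 1.05 but was not called (adjusted p = 0.0974).

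Within libraries Ltbp2 was set against Ltbp1, Fbn1, Ltbp3 and Ltbp4. Its ratio to Ltbp1 was 0.189, 0.174 and 0.139 in WT and 0.350, 0.245 and 0.300 in mutants, and its ratio to Fbn1 was 0.744, 0.730 and 0.409 in WT and 0.884, 0.944 and 1.09 in mutants. The groups did not overlap in either of these ratios. Its ratio to Ltbp3 was 0.133, 0.164 and 0.364 in WT and 0.258, 0.306 and 0.421 in mutants, and its ratio to Ltbp4 was 0.0361, 0.0418 and 0.251 in WT and 0.0939, 0.111 and 0.184 in mutants. WT replicate 3 lay among the mutant libraries in the ratio to Ltbp3 and above them in that to Ltbp4, while the other WT libraries lay below all mutants in both. All of these ratios were chosen after the levels had been seen. The profiles nearest to that of Ltbp2 were those of H2-T24, an MHC class I gene, Tcf21, a transcription factor of fibroblasts and their precursors, and Vcam1, a leukocyte adhesion molecule, at RMS differences of 0.14, 0.16 and 0.16 against a spread of 0.55 for Ltbp2. None of the 8 fibroblast markers was called, and their median log2 fold change was 0.26. The T and B cell and cardiomyocyte marker sums were higher in the same 3 libraries. Ltbp2 was highest in replicate 3, where those sums were also highest, at 42.0 and 552.4 FPKM, and the part of these cells in its value was not tested. Macrophage markers summed to 87.4 to 142.7 FPKM in WT and 129.4 to 377.8 in mutant libraries and were highest in replicate 1, where Ltbp2 was lowest among the mutants. Among the mutants the skeletal muscle marker sum was also highest in replicate 1, at 110.4 FPKM, and lowest in replicate 3, at 14.35 FPKM.

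The window around the start of Ltbp2 is shown because it was the called member, though the data hold no measurement of it. It is the RefSeq promoter of build GRCm38.p6 from 250 bases before to 50 after the start, chr12:84876442-84876741, minus strand, 5′ to 3′. Capitals mark CAGAC, a box that SMAD proteins can bind, or its reverse complement GTCTG.
Ltbp2 promoter: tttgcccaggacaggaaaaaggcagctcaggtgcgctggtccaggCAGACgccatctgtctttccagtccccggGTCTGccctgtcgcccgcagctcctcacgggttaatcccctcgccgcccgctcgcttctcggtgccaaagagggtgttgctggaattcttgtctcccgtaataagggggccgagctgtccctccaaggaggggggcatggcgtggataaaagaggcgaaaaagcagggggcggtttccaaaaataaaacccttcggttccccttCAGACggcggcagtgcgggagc
The window holds 3 matches. The box was present in 49.6% of all 32851 RefSeq promoter windows of the same length, searched on both strands, and in 5 of the 10 windows found for 6 of the 9 genes, so its presence is a common property and a description only.

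Ltbp1 (NCBI gene 268977), which anchors latent TGF-beta to fibronectin and fibrillin, was steady in WT and scattered in the mutant. It measured 66.69, 72.24 and 65.29 FPKM in WT against 56.31, 83.8 and 104.13 FPKM in Fbn1C1041G/+ replicates 1 to 3. The mutant values lay on both sides of the WT range, and the coefficient of variation was 5.40% in WT and 29.5% in the mutant. This difference in spread, over 3 libraries per group, was not tested. The log2 fold change was 0.21 with an interval of 0.798 to 1.68-fold (limma adjusted p = 0.804), and 0.18 without WT replicate 3. Ly75, Gem and Srp54b had the nearest profiles, at RMS differences of 0.031, 0.047 and 0.050.

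Ltbp4 and Ltbp3 gave values that turned on a single library. Ltbp4 (NCBI gene 108075), which binds latent TGF-beta 1 and takes part in elastic fibre assembly with fibulin-5, measured 349.27, 301.65 and 36.07 FPKM in WT replicates 1 to 3 against 209.9, 185.55 and 170.22 FPKM in the mutant. WT replicate 3 was 9.68 times lower than WT replicate 1, while the mutant libraries lay within 1.23 times of each other. With all libraries the log2 fold change was 0.26 ± 0.80 (SE), with an interval of 0.327 to 4.38-fold (limma adjusted p = 0.949). Without WT replicate 3 both remaining WT values lay above all mutant values, and the log2 fold change was -0.79 with an interval of -1.19 to -0.38 and an adjusted p of 0.0443, in a comparison that called 5.59% of all tested genes lower. When values were also corrected for GC content, the log2 fold change without that library was -0.41 and was not called (adjusted p = 0.159). The direction of Ltbp4 and whether it passed the threshold thus differed between these fits.

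Ltbp3 (NCBI gene 16998), which binds latent TGF-beta and is needed for its secretion in bone and teeth, was likewise low in WT replicate 3. It measured 94.74, 76.69 and 24.89 FPKM in WT against 76.42, 67.26 and 74.34 FPKM in mutant libraries. The mutant libraries lay within 1.14 times of each other, and WT replicate 3 was 3.81 times lower than WT replicate 1. The log2 fold change was 0.35 with all libraries (limma adjusted p = 0.856) and -0.23 without WT replicate 3 (adjusted p = 0.543, interval 0.658 to 1.11-fold). With GC correction and without that library it was 0.11 (adjusted p = 0.780), so that the sign of Ltbp3 also turned with the correction. Leaving out that library put the groups apart for 5 of the 8 tested members, where 34.3% of all tested genes did not overlap in this smaller comparison of 2 against 3. Fbn1 and Ltbp2 lay above, as did 14.0% of all tested genes, and Mfap4, Ltbp3 and Ltbp4 below, as did 20.4%. Of the 8, Ltbp4 was then called lower and none was called higher, where 0.737% of all tested genes were.

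Both genes have GC-rich transcripts. GC content was 62.5% in Ltbp4, 61.5% in Ltbp3, 59.7% in Mfap2 and 58.5% in Ltbp2, and 46.4% to 53.9% in Mfap5, Ltbp1, Fbn1 and Mfap4. The 4 coding stretches below show this in letters, each the first 60-base window within an exon whose GC content is nearest to that of its whole coding sequence, with G and C in capitals. They lie in build GRCm38 at chr2:125477519-125477578, minus strand (Fbn1), chr12:84876130-84876189, minus strand (Ltbp2), chr19:5742400-5742459, plus strand (Ltbp3), and chr7:27335459-27335518, minus strand (Ltbp4), and are written 5′ to 3′ along the transcript.
Fbn1: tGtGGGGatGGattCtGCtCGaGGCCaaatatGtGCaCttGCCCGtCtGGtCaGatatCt
Ltbp2: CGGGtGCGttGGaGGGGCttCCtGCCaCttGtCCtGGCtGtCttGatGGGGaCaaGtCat
Ltbp3: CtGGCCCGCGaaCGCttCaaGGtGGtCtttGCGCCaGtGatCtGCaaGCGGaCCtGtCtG
Ltbp4: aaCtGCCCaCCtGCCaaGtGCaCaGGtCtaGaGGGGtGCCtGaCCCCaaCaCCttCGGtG
The windows hold 51.7% G and C in Fbn1 and 61.7% in each of Ltbp3 and Ltbp4.

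WT replicate 3 was compared with the mean of WT replicates 1 and 2 on the log2(FPKM + 1) scale. The median difference was 0.15 over 3433 genes of 45% to 50% GC, -0.20 over 2867 genes of 55% to 60% and -0.86 over 652 genes of 60% to 65%. Ltbp3 differed by -1.74 and Ltbp4 by -3.13, both below the lower quartile of -1.5 of the genes of 60% to 65% GC, and Ltbp4 ranked 23 from the lowest of 13438 genes. Mfap2 and Ltbp2 differed by -0.52 and -0.43, and Fbn1 by 0.36. The nearest profiles to Ltbp4 were Trnp1, Atn1 and Grik5, which stood at 8.12, 6.54 and 1.49 FPKM in WT replicate 3 and at 20.3 FPKM or more in the other WT libraries, with GC contents of 65.2%, 62.0% and 62.3%. Those nearest to Ltbp3 were Gata6, Trp53i11 and Pdcd7, with GC contents of 56.5% to 58.1%. After GC correction with all libraries kept, Ltbp4 still had a log2 fold change of 0.28, with a 95% interval of 0.504 to 2.92-fold. What set these 2 genes low in that library was not tested.

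**Figure D4:**
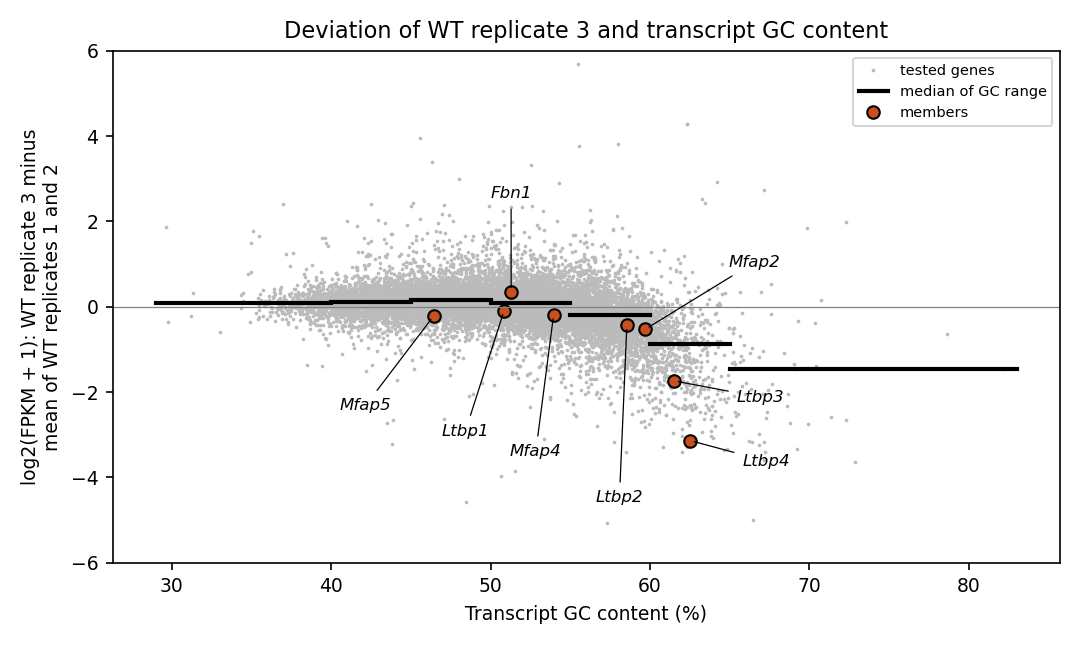
Difference of WT replicate 3 from the mean of WT replicates 1 and 2 in log2(FPKM + 1), against transcript GC content in percent, for tested genes (grey), with the median of each GC range (black bars) and the 8 tested members (orange). The medians fell from 0.15 at 45% to 50% GC to -0.86 at 60% to 65%, and Ltbp3 and Ltbp4 lay below, at -1.74 and -3.13.

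The sum of the 4 LTBP genes was 523.3, 463.2 and 135.3 FPKM in WT and 362.3, 357.2 and 380.0 FPKM in mutant libraries. Ltbp4 made up 66.7%, 65.1% and 26.7% of it in WT and 57.9%, 51.9% and 44.8% in the mutant, while Ltbp1 made up 12.7%, 15.6% and 48.2% in WT and 15.5%, 23.5% and 27.4% in the mutant. The makeup of WT replicate 3 was unlike that of the other 5 libraries, with Ltbp1 above Ltbp4 in that library alone. The share of Ltbp2 was 2.41%, 2.72% and 6.70% in WT and 5.44%, 5.76% and 8.23% in the mutant, so that WT replicate 3 lay among the mutant values in share though it had the lowest level.

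Genes that act with fibrillins and LTBPs were followed on 6 lists, none of whose 67 tested members was called in either direction, where 5.60% of all tested genes were called. On the list of elastic fibre core and assembly genes, 18 of 19 were tested, with a median log2 fold change of 0.33. Fbln2, Emilin2, Loxl2, Loxl3 and Fn1 were higher in every mutant library than in any WT library. Of all tested genes 6.85% lay above in this way, and 20.0% did not overlap in either direction. Emilin2, a microfibril-associated glycoprotein gene, came nearest to a call, with 5.21 ± 0.450 FPKM in WT against 9.95 ± 2.36 FPKM in Fbn1C1041G/+ (SD, n = 3 each, log2 fold change 0.80, limma adjusted p = 0.0550), followed by fibronectin, Fn1 (0.71, adjusted p = 0.105), while elastin, Eln, had a log2 fold change of 0.34 (adjusted p = 0.885). The median of this list without WT replicate 3 was 0.085, Emilin2 stood at 0.85 and Fn1 at 0.61, and the sign of Eln turned, to -0.27. The 7 tested ADAMTS and ADAMTS-like genes whose products bind fibrillin had a median of 0.12, with Adamts6 at -0.10, Thsd4 at 0.27 and Adamtsl5 at 0.61, and the groups overlapped for all 7. Their median without WT replicate 3 was -0.10, with Thsd4 at 0.43 and Adamtsl5 at -0.18. The 9 tested genes of fibrillin processing and of integrins that bind its RGD motif had a median of 0.22, among them Furin (0.52), Pcsk6 (0.40) and the integrin alpha 5 gene Itga5 (0.68). That library left out, the median was 0.14, with Furin at -0.16, Pcsk6 at 0.52 and Itga5 at 0.55.

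The ligands that LTBPs hold and their receptors followed. Of 16 TGF-beta ligand, receptor and Smad genes the median log2 fold change was 0.42. The groups did not overlap for 4 of them, against 20.0% of all tested genes. Tgfbr1, Tgfbr2 and Nrros lay above, as did 6.85% of all tested genes, and Smad2 lay below, as did 13.1%. Tgfb1 had a log2 fold change of 0.68 with an SE of 0.70, Nrros, which anchors latent TGF-beta on macrophages and microglia, one of 0.70 (limma adjusted p = 0.0807), and Tgfbr2 one of 0.38 (adjusted p = 0.366). Without WT replicate 3 the median of these 16 was 0.22, Nrros stood at 0.79 and Tgfb1 at -0.21. Of 13 TGF-beta response genes the median was 0.38, or 0.19 without WT replicate 3. Itga11, the gene of a collagen-binding integrin subunit, stood at 0.51 on that scale, with a limma adjusted p of 0.243. Of 9 BMP and GDF ligand genes whose products can bind fibrillin 4 were tested, with a median of 0.24, or 0.17 without WT replicate 3. Bmp2 stood at 0.40 and Inhba at 0.54 with all libraries, and at 0.20 and 0.29 without that library. With all libraries the medians of the 6 lists lay above that of all tested genes, and without WT replicate 3 that of the ADAMTS list lay below it. No test was made of the lists.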

How the data were processed

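Gene-level FPKM came in 1 table that the authors deposited, with values to 2 decimals and the unit given per the file headers. The submitters' processing notes name build mm9, while no source used here names the tools for alignment and quantification. Of 21117 genes, 21059 were matched by NCBI gene number to a symbol in a RefSeq table of GRCm38.p6 and 58 were not. Columns were mapped to samples by title, and groups follow the genotype label. No batch is given in the labels.

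Low FPKM of single-transcript genes under 1500 bases fell on steps. Depth was estimated as the value that put most of them (71.2% to 74.9%) within 0.2 of a whole fragment, a choice made on these same values. No intervals were computed. Libraries shared at most 1.83% of non-zero values, and none was counted as a repeat.

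Values were analysed as log2(FPKM + 1) with limma 3.58.1 in R 4.3.3 (lmFit, eBayes with trend, 2-sided), on genes averaging 1 FPKM or more, which left out 7679. The fit was also run on data simulated from the means and variances of these same libraries, which is not an independent check. Fold changes are Fbn1C1041G/+ minus WT. GC content came from GENCODE M21 transcripts (99.6% of tested genes), and GC-corrected values had a loess curve of span 0.3 removed per library. Nearest profiles are the 3 tested genes with the smallest RMS difference of centred values. The pathway genes named are the first of each list and the 2 with the smallest unadjusted p. On the elastic fibre list and the TGF-beta ligand, receptor and Smad list, genes whose groups did not overlap are named too. Of these, 1 gene is not reported here. The genes, lists and alternatives were chosen with earlier results of these data known, so they are not independent evidence. Medians and level orders without WT replicate 3 were added after seeing the data. Promoters are RefSeq's. Figures were drawn with matplotlib 3.10.9.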

Additional observations from a re-analysis of the deposited data

How the results depend on the processing

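The 3 libraries per group limit what could be called, and the alternatives moved the calls of single genes. The directions of Fbn1, Mfap4, Mfap5, Ltbp1 and Ltbp2 held under all 20 alternatives run on them. The call of Ltbp2 ended under 16, the cause not being tested: its log2 fold change stayed at 0.98 with no filter (limma adjusted p = 0.0757), a filter at 5 FPKM (0.0587), no trend (0.0522), robust moderation (0.0503) and the replicate block (0.0931), and was 1.0 with rescaling to a common sum (0.0633), 1.02 with median-ratio scaling (0.0627) and quantile normalization (0.0555), 1.05 with the replicate block and GC correction (0.0560) and 1.05 with GC correction without WT replicate 3 (0.0974). Sample weights gave -0.17 for Mfap2, -0.080 for Ltbp3 and -0.57 for Ltbp4, and GC correction without WT replicate 3 gave -0.41 for Ltbp4. Without single libraries the log2 fold change ranged from -0.25 to 0.36 in Mfap2, -1.13 to -0.68 in Mfap4, 0.78 to 1.1 in Ltbp2, -0.23 to 0.71 in Ltbp3 and -0.79 to 0.83 in Ltbp4. The untested value of Fbn2, -0.040, was -0.24 and -0.49 with pseudocounts of 0.1 and 0.01. Over all genes, 100 higher and 652 lower calls became 33 and 349 with a filter at 5 FPKM and 285 and 1011 with sample weights, and ranged from 37 to 192 and 389 to 751 without single libraries. Correlations of same-numbered deviations were 0.26, -0.024 and 0.097, and those of the other pairs of libraries ran from -0.19 to 0.097. Whether the replicate numbers pair the libraries cannot be told from so few values. The replicate block changed the call of no member other than Ltbp2.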
